A study of Mus musculus with 64 samples.

Results

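The Polycomb group genes Ezh2, Eed, Suz12, Cbx2, Cbx7, Cbx8, Ring1, Rnf2 and Bmi1 were followed through the RNA sequencing of the mouse male germline. They were taken by gene symbol, as a set chosen with earlier results of these data known, and are 9 of the 26385 genes listed for each library. All 47 RNA-seq libraries were read, 20 of sorted germ cells and 27 of whole testis, and each library came from 1 mouse. The sorted germ cells came from Morc1 tg/+ and Morc1 tg/tg males (labelled het and KO), with 2 and 2 libraries at E16.5, 2 and 2 of E18.5, 3 and 2 at P2.5, and 4 and 3 at P10.5. Whole testis was sequenced for Morc1 at P10.5 (1 +/+, 2 tg/+ and 3 tg/tg libraries) and at P14.5 (3 tg/+ and 3 tg/tg), and at P10.5 for Dnmt3l (3 +/+, 3 +/- and 3 -/-) and Miwi2 (2 +/- and 2 -/-). Another 2 Morc1 testis libraries of P10.5, 1 +/+ and 1 tg/+, were labelled as preliminary and entered 1 alternative fit only.

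The Morc1 tg allele is a tyrosinase transgene insertion in the FVB/N background that removes early exons of Morc1, a gene needed for transposon silencing in male germ cells. Germ cells of E16.5, E18.5 and P2.5 were isolated through an Oct4-IRES-eGfp reporter carried by all those mice, whereas P10.5 germ cells were isolated as cells of low side scatter that were high for EPCAM and negative for MHCI. The reporter came in through a cross to mice of mixed genetic background, and the sources used here describe that cross for E16.5 to P2.5 only. The step from P2.5 to P10.5, the change of sort and a change of genetic background therefore cannot be told apart. RNA of sorted cells was depleted of ribosomal RNA and amplified, while testis RNA was made into libraries with another kit, so levels are compared within sorted cells or within testis. Dnmt3l is the cofactor of de novo DNA methylation in germ cells, and Miwi2 (gene symbol Piwil4) is a piRNA-binding protein that directs such methylation to transposons.

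Polycomb proteins keep genes silent through marks on histones. Polycomb repressive complex 2 (PRC2) is built on the methyltransferase Ezh2 and its essential partners Eed and Suz12, and it methylates histone H3 at lysine 27 (H3K27). Polycomb repressive complex 1 (PRC1) carries the ubiquitin ligases Ring1 and Rnf2, which modify histone H2A. In the canonical form of PRC1 a chromodomain protein such as Cbx2, Cbx7 or Cbx8 reads methylated H3K27, and a PCGF protein such as Bmi1 pairs with the ligase. Ezh1, the relative of Ezh2, can take its place in PRC2. In the male germline PRC2 is known to hold down somatic genes, and Bmi1 and Cbx2 have known roles in spermatogonia and in gonad development.

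The genes lie apart in the genome except for Cbx2 and Cbx8, which are neighbours on chromosome 11. In mm9, the build of the deposited tables, Ezh2 (ENSMUSG00000029687) spans chr6:47480273-47545340 on the minus strand, Eed (ENSMUSG00000030619) chr7:97103166-97129493 on the minus strand, and Suz12 (ENSMUSG00000017548) chr11:79806608-79847625 on the plus strand. Cbx2 (ENSMUSG00000025577) lies at chr11:118884276-118892584 on the plus strand, Cbx8 (ENSMUSG00000025578) at chr11:118897619-118902283 on the minus strand, and Cbx7 (ENSMUSG00000053411) at chr15:79746237-79801549 on the minus strand. Ring1 (ENSMUSG00000024325) lies at chr17:34157737-34161625 on the minus strand, Rnf2 (ENSMUSG00000026484) at chr1:153316536-153347953 on the minus strand, and Bmi1 (ENSMUSG00000026739) at chr2:18598645-18608256 on the plus strand. The annotation places a gene on the opposite strand inside the Ezh2 and the Suz12 locus. The authors counted with HTSeq at its default settings, which use strand, and where a library kit does not mark strand the reads of those partners cannot be told apart from those of Ezh2 and Suz12.

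Promoter windows from RefSeq on GRCm38.p6 were matched for 8 of the 9 genes, Cbx2 being the one without a match. The windows ran from 250 bases before to 50 bases after the transcription start, and they are rich in CG pairs, the dinucleotide at which Dnmt3l-dependent methylation is placed. Suz12 held 41 CG pairs, more than 96.5% of the 32851 promoters of the same table, Ring1 held 37, Cbx7 33, Ezh2 31, Rnf2 30, Cbx8 24, Bmi1 23 and Eed 17. The median over all promoters was 7, with quartiles of 3 and 20, so only Eed lay below the upper quartile, above 68.6% of promoters. The stretch upstream of the start is shown for Ezh2, Eed, Suz12 and Bmi1, the PRC2 core and the PRC1 gene called in the most comparisons, with CG pairs in capitals, read 5′ to 3′ on the strand of the gene. These are chr6:47595031-47595280 (minus strand, 23 CG pairs), chr7:89980977-89981226 (minus, 12), chr11:79992856-79993105 (plus, 37) and chr2:18676768-18677017 (plus, 21) of GRCm38.p6.
Ezh2: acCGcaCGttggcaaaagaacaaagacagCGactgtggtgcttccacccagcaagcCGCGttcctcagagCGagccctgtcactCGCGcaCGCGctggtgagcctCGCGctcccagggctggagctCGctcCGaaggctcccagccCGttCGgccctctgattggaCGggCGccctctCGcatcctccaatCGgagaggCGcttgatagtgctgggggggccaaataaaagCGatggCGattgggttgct
Eed: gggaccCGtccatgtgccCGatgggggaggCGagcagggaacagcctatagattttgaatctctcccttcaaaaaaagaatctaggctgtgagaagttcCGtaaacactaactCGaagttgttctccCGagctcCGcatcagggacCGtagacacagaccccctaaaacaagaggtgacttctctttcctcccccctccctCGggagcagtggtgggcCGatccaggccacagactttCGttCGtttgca
Suz12: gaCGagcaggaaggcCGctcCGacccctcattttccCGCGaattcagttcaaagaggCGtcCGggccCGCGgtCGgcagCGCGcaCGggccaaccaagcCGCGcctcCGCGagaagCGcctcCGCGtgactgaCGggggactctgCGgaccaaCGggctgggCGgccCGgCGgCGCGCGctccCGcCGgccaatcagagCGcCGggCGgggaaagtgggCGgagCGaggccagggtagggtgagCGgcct
Bmi1: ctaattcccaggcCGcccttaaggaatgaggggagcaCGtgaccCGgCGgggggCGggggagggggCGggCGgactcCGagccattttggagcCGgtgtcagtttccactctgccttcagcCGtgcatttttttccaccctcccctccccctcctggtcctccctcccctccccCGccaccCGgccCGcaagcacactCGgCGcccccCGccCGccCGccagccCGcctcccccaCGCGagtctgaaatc
The letters TTTCCCGC and TTTGGCGC, the classical site of E2F cell cycle factors, were searched on both strands of each window. Suz12 held the first, which 1.07% of all promoters held, and Ezh2 held the second just downstream of its start, as did 0.514% of all promoters, and 1.56% held either. A match of letters is a description and no measurement of binding, and no methylation of these promoters was measured in the libraries used here.

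Reads on genes numbered from 2413679 to 14918478 in the sorted libraries and from 22509570 to 42137954 in the testis libraries. Levels are given as the authors' RPKM (reads per kilobase of exon, scaled to the mapped reads of the library), and fold changes with their standard errors (SE) come from edgeR's quasi-likelihood test on the counts, adjusted over all genes tested and called under an adjusted p of 0.05. Fold changes were scaled by TMM (trimmed mean of M values), RPKM by total reads, so they need not match exactly. From P2.5 to P10.5 in tg/+ germ cells they differed in sign for Ezh2, Suz12, Cbx7 and Cbx8. Their mean RPKM was slightly lower at P10.5, while their fitted log2 changes were 0.16, 0.26, 0.16 and 0.15, none of them called. The germ cell markers summed to 436 to 1100 RPKM and the Sertoli markers to 10.3 to 38.6 RPKM over the sorted libraries. Morc1 transcript fell in all tg/tg groups but E18.5, where its log2 difference of -2.32 did not pass (adjusted p = 0.139), and Dnmt3l transcript fell by 3.93 on the log2 scale in Dnmt3l -/- testis. Miwi2 transcript went against its label, at 6.65 and 7.01 RPKM in the 2 +/- libraries and 10.7 and 11.5 RPKM in the 2 libraries labelled Miwi2 -/-. Whether the counted exons lie in the part altered by that allele was not checked. The authors reported that certain LINE transposons and the IAP-Ey class were derepressed in their Miwi2 -/- testes. The 2 E18.5 tg/+ libraries held 3898526 and 4007833 reads and differed from each other in several Polycomb genes, as given with each result.

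In E16.5 tg/+ germ cells Eed was the most abundant of the 9 transcripts per length and the catalytic subunit Ezh2 was among the least. Mean RPKM at E16.5 ran from Eed at 44.6 through Bmi1 at 27.4, Rnf2 at 16.2, Cbx7 at 14.7, Suz12 at 9.59, Cbx2 at 6.63, Ezh2 at 5.3 and Cbx8 at 2.91 to Ring1 at 1.4, and of the neighbours in that order only Rnf2 and Cbx7 overlapped between libraries. At E18.5 Bmi1 led at 49.4, followed by Rnf2 at 28.9 and Eed at 28, which overlapped, and the values of Suz12, Ezh2 and Cbx2 ran into one another. At P2.5 the 7 genes from Rnf2, at 24.5, down to Cbx7, at 11, each overlapped the next, so that their order was not resolved. At P10.5 Bmi1 led again at 27.7, apart from Eed at 22.8 and Suz12 at 20.3, which overlapped, then Rnf2 at 14.7, Ezh2 at 12.9, Cbx2 at 12.2 and Cbx7 at 10.1. Cbx8 and Ring1 were the lowest at every stage in the tg/+ mean, and both rested on few reads in sorted cells, 19 to 254 for Cbx8 and 11 to 102 for Ring1, so their values there carry the widest counting error.

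**Figure D1:**
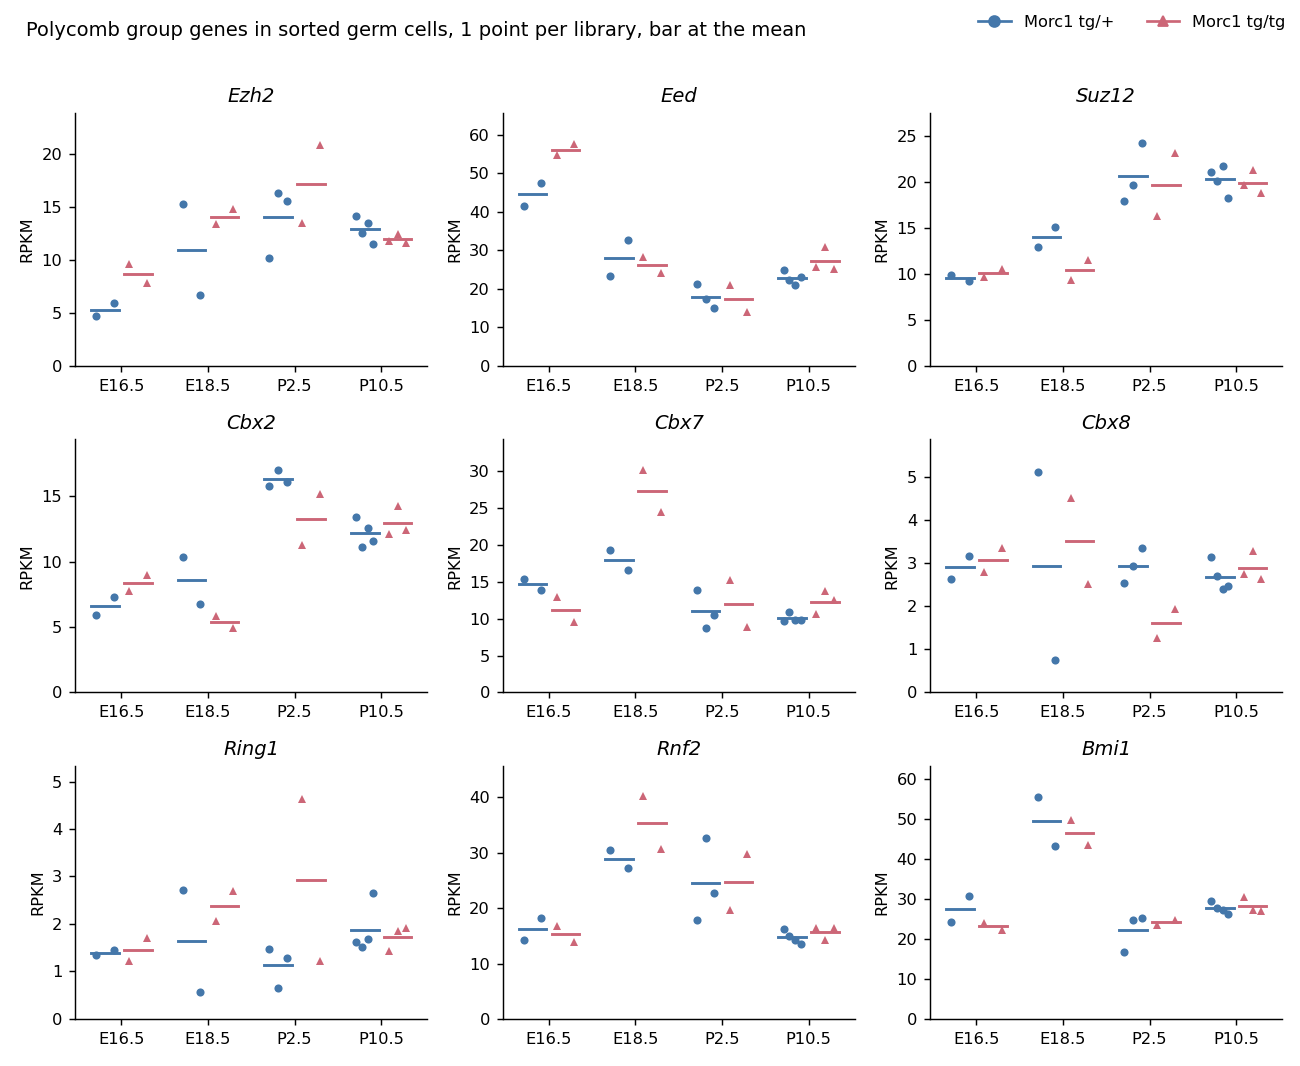
RPKM of the 9 Polycomb group genes in sorted germ cells, 1 panel for each gene, with stage on the horizontal axis, 1 point for each library and a bar at the group mean for Morc1 tg/+ and tg/tg. In tg/+ germ cells Eed has a mean of 44.6 at E16.5 and 17.9 at P2.5, Bmi1 has its highest mean, 49.4, at E18.5, and no difference between the genotypes at a stage was called by edgeR.

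Transcripts of the PRC2 core changed in different directions through germ cell development. Ezh2 had 4.69 and 5.91 RPKM in the 2 tg/+ libraries of E16.5, 15.3 and 6.69 at E18.5, 10.2, 16.3 and 15.6 at P2.5, and 14.2, 12.6, 13.5 and 11.5 at P10.5. All libraries from E18.5 on were above those of E16.5, although the second E18.5 library was only just so. Ezh2 rose 2.05-fold from E16.5 to E18.5 (log2 change 1.04 ± 0.28 SE, adjusted p = 0.0167), against 8.13% of all genes tested that rose at this step. The call rested on few mice: without the first E18.5 library the change was 0.47 (adjusted p = 0.2), and it was also lost without either E16.5 library (1.1, adjusted p = 0.0729, and 0.96, adjusted p = 0.109). Without that same E18.5 library, the later step from E18.5 to P2.5 passed instead (0.78, adjusted p = 0.0239).

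Eed, the subunit that binds methylated H3K27, moved the other way. Its values were 41.6 and 47.6 RPKM at E16.5, 23.3 and 32.6 in E18.5 cells, 21.2, 17.4 and 15.1 at P2.5, and 24.8, 22.3, 21 and 23 at P10.5 in tg/+ germ cells. The E16.5 libraries were above all later ones, and the P2.5 libraries were below both of E18.5. Eed fell 1.81-fold from E18.5 to P2.5 (-0.86 ± 0.20, adjusted p = 0.00378), where 21% of genes fell, and rose 1.55-fold from P2.5 to P10.5 (0.64 ± 0.17, adjusted p = 0.0125), where 13.4% of genes rose. Its change from E16.5 to E18.5 was -0.63 ± 0.22 and did not pass (adjusted p = 0.0578), but did with no filter on low counts (-0.64, adjusted p = 0.0358), without the first or the third P2.5 library (adjusted p = 0.0313 and 0.0452), and without the second E18.5 library (-1.03, adjusted p = 0.0042), without which the fall to P2.5 in turn did not (-0.46, adjusted p = 0.092). The later rise did not pass without the third P2.5 library (0.48, adjusted p = 0.0757).

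Suz12, which holds PRC2 together, had 9.9 and 9.28 RPKM at E16.5, 13 and 15.1 in E18.5 cells, 18, 19.7 and 24.3 at P2.5, and 21.1, 20.1, 21.8 and 18.3 at P10.5. In RPKM the groups did not overlap up to P2.5, and P10.5 lay within the range of P2.5. The fitted change from P2.5 to P10.5, scaled by TMM, was 0.26 ± 0.13 and not called (adjusted p = 0.152). Suz12 rose from E16.5 to E18.5 (0.57 ± 0.17, adjusted p = 0.0287), a call lost without the second E16.5 library (0.43, adjusted p = 0.28) or the second E18.5 library (0.33, adjusted p = 0.252), and in the latter case the step to P2.5 passed (0.6, adjusted p = 0.0167), as it did without the first P2.5 library (0.48, adjusted p = 0.0284). With all libraries that step was 0.36 (adjusted p = 0.0857).

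The balance between Eed and Ezh2 shifted with age. Within a library, Eed over Ezh2 was 8.04 and 8.87 at E16.5, 1.53 and 4.87 in E18.5 cells, 0.971 to 2.08 at P2.5 and 1.56 to 1.99 at P10.5 in tg/+ germ cells. Suz12 over Ezh2 was 1.57 and 2.11 at E16.5, 0.851 and 2.25 in E18.5 cells, 1.21 to 1.76 at P2.5 and 1.49 to 1.61 at P10.5, so that the stages overlapped. Ezh1 over Ezh2, the balance of both methyltransferases, went from 12.6 and 12.8 at E16.5 to 2.21 and 4.48 at E18.5, 2.74 to 4.14 at P2.5 and 1.6 to 1.94 at P10.5. Ezh1 itself, at mean RPKM of 67.4 at E16.5 and 31.9 at E18.5, fell by 1.05 ± 0.12 on the log2 scale (adjusted p = 2.69e-05). Ezh1 thus exceeded Ezh2 in RPKM in every tg/+ germ cell library.

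Ezh2 and the proliferation marker Mki67 did not keep a fixed ratio. Ezh2 over Mki67 was 0.861 and 0.952 at E16.5, 0.862 and 2.64 in E18.5 cells, 0.115 to 0.156 at P2.5 and 0.152 to 0.178 at P10.5. Of the 13 cell cycle genes tested, 6 fell and 0 rose from E16.5 to E18.5, beside 1778 of 16890 genes that fell, and 13 rose from E18.5 to P2.5, beside 18.1% of all genes, with a median log2 change of 2.59, beside -0.07 over all genes. E18.5 is within the period when male germ cells rest and P2.5 within that when they resume division.

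**Figure D2:**
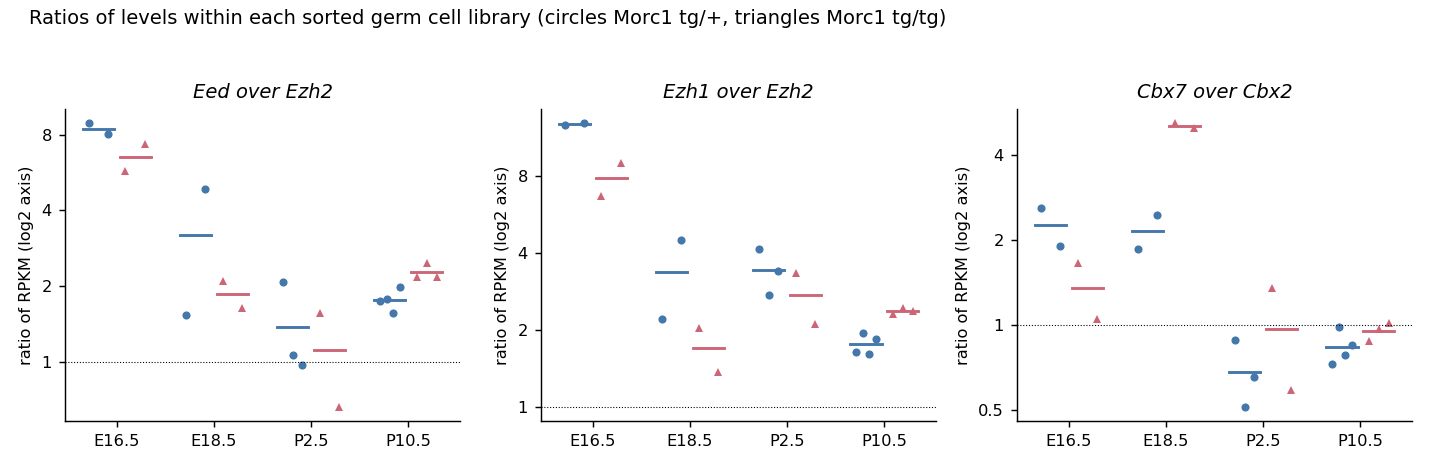
Ratios of RPKM within each sorted germ cell library for Eed over Ezh2, Ezh1 over Ezh2 and Cbx7 over Cbx2, on log2 axes by stage, with 1 point for each Morc1 tg/+ (circles) or tg/tg (triangles) library, a bar at the group mean and a dotted line at a ratio of 1. Eed over Ezh2 goes from 8.04 and 8.87 at E16.5 to between 1.56 and 1.99 at P10.5 in tg/+ germ cells, and Cbx7 over Cbx2 is below 1 in all postnatal tg/+ libraries.

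Among the PRC1 genes, Bmi1 changed at each of the 3 steps. Bmi1 had 24.1 and 30.7 RPKM at E16.5, 55.5 and 43.3 in E18.5 cells, 16.6, 24.7 and 25.1 at P2.5, and 29.4, 27.8, 27.3 and 26.3 at P10.5 in tg/+ germ cells. Both E18.5 libraries were above every library of the other stages. It rose 1.83-fold from E16.5 to E18.5 (0.87 ± 0.16, adjusted p = 0.000955), fell 2.51-fold to P2.5 (-1.33 ± 0.14, adjusted p = 3.97e-06) and rose 1.52-fold to P10.5 (0.60 ± 0.12, adjusted p = 0.00167). None of these calls was lost when any library was left out or under the other settings run.

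The ligases differed more from each other in level than with stage. Rnf2 had 14.2 and 18.3 RPKM at E16.5, 30.5 and 27.3 in E18.5 cells, 17.9, 32.7 and 22.8 at P2.5, and 16.2, 14.9, 14.2 and 13.6 at P10.5. It rose from E16.5 to E18.5 (0.85 ± 0.22, adjusted p = 0.0109), which was lost without the first E16.5 library (0.77, adjusted p = 0.0918), and fell from P2.5 to P10.5 (-0.46 ± 0.16, adjusted p = 0.0476), where 14.2% of genes fell. P2.5 was spread around its high second library, without which the last change was -0.16 (adjusted p = 0.391; it missed the threshold in 7 of the 11 fits that left out 1 library) and the one from E18.5 to P2.5 passed as a fall (-0.71, adjusted p = 0.00263).
Ring1 lay far lower, with 1.34 and 1.45 RPKM at E16.5, 2.71 and 0.559 in E18.5 cells, 1.48, 0.654 and 1.28 at P2.5, and 1.63, 1.51, 1.69 and 2.65 at P10.5, and passed at no step. Rnf2 exceeded Ring1 in RPKM by 5.15 to 50 times over the tg/+ germ cell libraries, and by 2.58 to 4.59 times over the testis libraries.

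The chromodomain genes exchanged places between E18.5 and P2.5. Cbx7 had 15.4 and 13.9 RPKM at E16.5, 19.3 and 16.6 in E18.5 cells, 8.7 to 13.9 over the 3 libraries of P2.5, and 9.68, 10.9, 9.84 and 9.8 at P10.5 in tg/+ germ cells. Cbx2 had 5.96 and 7.31 at E16.5, 10.4 and 6.78 in E18.5 cells, 15.8, 17 and 16.1 at P2.5, and 13.4, 11.1, 12.6 and 11.6 at P10.5. Cbx7 was above Cbx2 in the 4 fetal libraries and below it in the 7 postnatal ones. From E18.5 to P2.5 Cbx7 fell (-0.90 ± 0.20, adjusted p = 0.00238) and Cbx2 rose 1.69-fold (0.76 ± 0.17, adjusted p = 0.00226), where 18.1% of all genes rose. Cbx2 passed already from E16.5 to E18.5 when the second E18.5 library was left out (0.56, adjusted p = 0.0463). Within a library, Cbx7 over Cbx2 was 1.9 and 2.59 at E16.5, 1.85 and 2.45 in E18.5 cells, 0.512 to 0.883 at P2.5 and 0.723 to 0.983 at P10.5. Cbx8 was at 2.65 and 3.17 RPKM at E16.5, 5.13 and 0.761 in E18.5 cells, 2.55 to 3.35 at P2.5 and 2.41 to 3.16 at P10.5. The E18.5 libraries lay on either side of all others, on 122 and 21 reads, and no direction could be given for Cbx8 at either step that used them: without the first, Cbx8 was called lower at E18.5 than at E16.5 (-1.8, adjusted p = 0.00548) and higher at P2.5 (1.66, adjusted p = 0.00501), and without the second it was called lower at P2.5 (-0.87, adjusted p = 0.0423).

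In all, 4 of the 9 genes rose from E16.5 to E18.5, beside 8.13% of all genes tested, with a median log2 change of 0.38 beside -0.07 over all genes. Scaling by library size alone moved the members up by 0.12 on the log2 scale at this step and ended no call of a member. From E18.5 to P2.5, 1 rose and 3 fell (18.1% and 21% of all genes), and from P2.5 to P10.5, 2 rose and 1 fell (13.4% and 14.2%). Sertoli markers summed to 21.2 and 26.2 RPKM in the E18.5 tg/+ sorts, with 1 of the 6 listed markers at 0, and to 10.3 and 14 at E16.5 and 10.8 to 15.6 at P2.5. Of these, 1 of 6 rose from E16.5 to E18.5 (Sox9) and 1 rose and 2 fell to P2.5. Endothelial markers summed to 32.2 and 36.9 RPKM at E18.5 and to at most 20 at E16.5 and P2.5, with 1 of 4 up from E16.5 to E18.5 and 2 of 4 down to P2.5, the steps at which Bmi1 rose and fell. Blood markers summed to 24.2 and 31.7 RPKM at E18.5 and to at most 1.89 at P2.5, where 2 of 3 fell, as did 2 of 5 Leydig markers. Markers of undifferentiated spermatogonia summed to 14.8 and 20 RPKM at E16.5, 33.6 and 39.6 in E18.5 cells, 235 to 308 at P2.5 and 117 to 129 at P10.5. From P2.5 to P10.5 3 of 6 Sertoli markers rose (Cldn11, Wt1 and Sox9), with P10.5 sums of 23.5 to 38.6 RPKM that reached above those of all earlier tg/+ stages. At the same step, where Bmi1 rose again, 2 of 4 endothelial markers fell, to sums of 2.66 to 3.5 RPKM. Of the macrophage markers 2 of 4 fell, to 4.17 to 5.02, and 1 of 3 blood markers rose, to 0.415 to 4.2. Germ cell markers had 1 of 8 up and 5 down, and undifferentiated spermatogonia 0 of 7 up and 4 down. Differentiating spermatogonia had 3 of 5 up and 1 down, and early meiosis 4 of 6 up and 0 down. The part of these cell types in the Polycomb changes was not tested.

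Other subunits of both complexes moved at the same steps. Of the 9 further PRC2 genes tested, 6 rose and 1 fell from E18.5 to P2.5, beside 18.1% and 21% of all genes, with a median log2 change of 0.97 beside -0.07 over all genes. At the step before it 1 rose and 2 fell, and at the step after it 1 rose and 3 fell. The accessory subunit Mtf2 rose by 1.26 ± 0.23 (adjusted p = 0.000537), the histone-binding Rbbp7 rose by 1.10 ± 0.15 (adjusted p = 4.97e-05), and Phf1, a relative of Mtf2, went down (-1.58 ± 0.22, adjusted p = 4e-05). Of the 21 further PRC1 genes tested, 7 rose and 7 fell at this step, beside 18.1% and 21% of all genes, among them L3mbtl2 (2.16 ± 0.43, adjusted p = 0.000976) and E2f6 (1.61 ± 0.23, adjusted p = 5.45e-05), both of the noncanonical PRC1.6, which rose, and Bcor (-2.12 ± 0.17, adjusted p = 2.43e-07), of PRC1.1, which fell. From E16.5 to E18.5, 7 PRC1 genes rose and 4 fell, beside 8.13% of all genes that rose and 1778 of 16890 that fell, with E2f6 lower (-1.68 ± 0.24, adjusted p = 0.000139). From P2.5 to P10.5, 3 rose and 9 fell, beside 13.4% and 14.2% of all genes.

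The next comparison asked whether loss of Morc1 altered the Polycomb genes in germ cells. By edgeR's quasi-likelihood test no member was called at any of the 4 stages, and by DESeq2 1 was, Cbx7 at E18.5. At E16.5 the 9 genes gave 0 calls by edgeR's quasi-likelihood test and 0 by DESeq2, beside 0.421% of all genes called, with 4 under an unadjusted p of 0.05, beside 8.7% of all genes. The largest difference was in Ezh2, with 9.59 and 7.83 RPKM in tg/tg above 4.69 and 5.91 in tg/+ (0.64 ± 0.19, adjusted p = 0.178), and it passed only without the second tg/tg library (0.77, adjusted p = 0.0453). Eed was likewise higher in both tg/tg libraries, at 54.8 and 57.5 RPKM (0.25 ± 0.11, adjusted p = 0.487). Cbx2 was higher in both too, at 7.78 and 9 (0.26 ± 0.16, adjusted p = 0.679). Cbx7 was lower in both, at 12.9 and 9.48 RPKM (-0.48 ± 0.15, adjusted p = 0.271), and passed without the first of them (-0.7, adjusted p = 0.0194). Bmi1, at 24 and 22.3 RPKM, was just below its tg/+ libraries (-0.32 ± 0.11, adjusted p = 0.339). Blood markers summed to 35.6 and 40 RPKM in the tg/tg sorts of E16.5 and 6.69 and 22.2 in tg/+, and their part in these values was not tested.

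At E18.5 there were 0 calls by edgeR's quasi-likelihood test, beside 0.0416% of all genes, and 1 by DESeq2, which called 271 genes in all. Of the 9 genes 1 was under an unadjusted p of 0.05 in edgeR, beside 6.21% of all genes. That gene was Cbx7, at 30.1 and 24.5 RPKM in tg/tg above 19.3 and 16.6 in tg/+ (0.71 ± 0.22, adjusted p = 0.676 by edgeR and 0.0299 by DESeq2). Cbx2 lay below both of its tg/+ libraries, at 5.82 and 4.95 RPKM. Cbx7 over Cbx2 was thus 4.96 and 5.16 in tg/tg and 1.85 and 2.45 in tg/+. At E16.5 this ratio had been 1.05 to 1.65 in tg/tg, below tg/+. Suz12 was also lower in both tg/tg libraries, at 9.4 and 11.5 RPKM against 13 and 15.1 (-0.3 ± 0.31, adjusted p = 0.976 by edgeR). Rnf2 was higher in both, at 30.6 and 40.2 RPKM against 27.3 and 30.5 (0.4 ± 0.21, adjusted p = 0.828 by edgeR). The difference in the Morc1 effect between stages was not called for any member (0 calls by edgeR's quasi-likelihood test and by DESeq2, 2 under an unadjusted p of 0.05 beside 2571 of 17758 genes, adjusted p = 0.231 for Cbx7, 1.13% of all genes called).

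At P2.5 the 9 genes gave 0 calls by either tool, beside 0.0486% of all genes, and 0 under an unadjusted p of 0.05, beside 4.84% of all genes, with a smallest adjusted p of 0.968. Cbx2 (11.3 and 15.2 RPKM against 15.8, 17 and 16.1) and Cbx8 (1.26 and 1.95 against 2.55, 2.94 and 3.35) lay below tg/+ in both tg/tg libraries, and Ring1 reached 4.64 in 1 tg/tg library and 1.22 in the other. At P10.5, where 12.2% of all genes were called, the 9 genes again gave 0 calls by edgeR's quasi-likelihood test and by DESeq2 and 0 under an unadjusted p of 0.05, beside 26% of all genes. Only Eed had tg/tg libraries all above tg/+, at 25.6, 30.9 and 25.2 RPKM against at most 24.8 (0.18 ± 0.09, adjusted p = 0.239), and the smallest adjusted p of the 9 was 0.229, for Cbx7. Ezh2 at P10.5 was 11.8, 12.5 and 11.6 RPKM in tg/tg, within the tg/+ range of 11.5 to 14.2. Bmi1 was at 30.5, 27.1 and 26.9 RPKM, around the tg/+ range of 26.3 to 29.4.

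Other subunits were called in P10.5 germ cells. Ezh1 rose in tg/tg (0.25 ± 0.08, adjusted p = 0.0397), and Ezh1 over Ezh2 was 2.3 to 2.44 there against 1.6 to 1.94 in tg/+, the opposite order to E16.5, where it was 6.65 and 8.97 in tg/tg against 12.6 and 12.8. Eed over Ezh2 went the same way, at 2.17 to 2.47 in tg/tg against 1.56 to 1.99 at P10.5, and 5.71 and 7.34 against 8.04 and 8.87 at E16.5. Of the 21 further PRC1 genes 3 rose and 3 fell, beside 6.43% and 5.79% of all genes. Pcgf6 (0.64 ± 0.14, adjusted p = 0.00238), the PCGF protein of PRC1.6, and Bcor (0.52 ± 0.12, adjusted p = 0.00473) rose, while the polyhomeotic gene Phc3 (-0.66 ± 0.10, adjusted p = 6.85e-05) and Pcgf2, the nearest relative of Bmi1 (-0.60 ± 0.10, adjusted p = 0.00011), fell. Of the marker lists in the same comparison, undifferentiated spermatogonia had 4 of 7 genes up and 0 down, differentiating spermatogonia 0 up and 3 of 5 down, and early meiosis 0 up and 4 of 6 down. Sertoli markers had 0 up and 2 of 6 down, with sums of 16.1 to 27.3 RPKM in tg/tg and 23.5 to 38.6 in tg/+. Their part in these changes was not tested.

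The remaining comparisons were made in whole testis. In bulk tissue fewer cells of a type and less RNA per cell cannot be told apart. Between the 2 tg/+ libraries of P10.5 and the 3 of P14.5, Ezh2 rose 1.22-fold (0.28 ± 0.08, adjusted p = 0.0143) and Bmi1 rose 1.29-fold (0.37 ± 0.07, adjusted p = 0.00207), the other 7 were not called, and 25.4% of all genes rose. Ezh2 was at 18.6 and 20.5 RPKM at P10.5 and 24.7, 22.3 and 25.3 at P14.5, and its call was lost without the library of P10.5 numbered 2 (0.24, adjusted p = 0.098). Bmi1 was at 25.4 and 23 RPKM at P10.5 and 31.7, 30.7 and 32.3 at P14.5. The P14.5 values of both genes lay above all P10.5 values. Cbx2 (-0.32, adjusted p = 0.0107) and Ring1 (0.26, adjusted p = 0.0337) passed only without the P14.5 tg/+ library numbered 2. Over the same days 7 of 8 germ cell markers, 6 early meiotic and 6 pachytene markers rose, and 1 Sertoli marker rose and 5 fell.

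**Figure D3:**
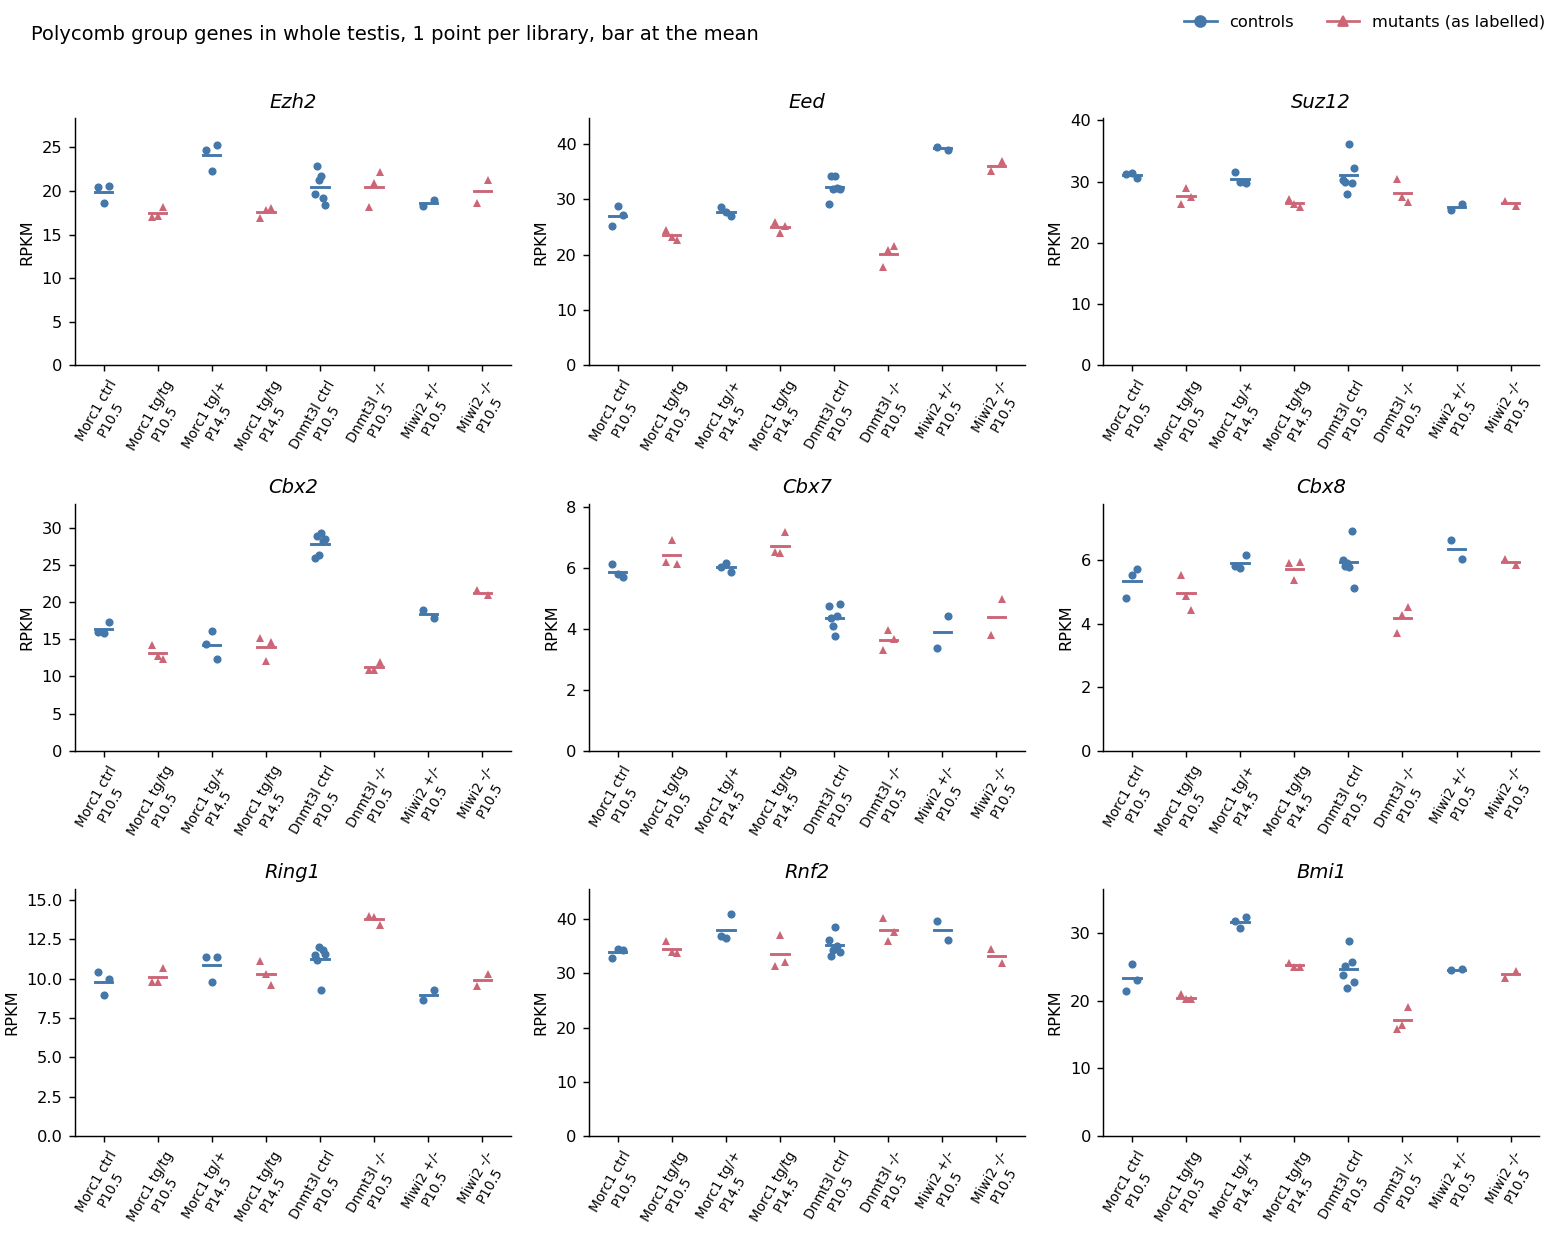
RPKM of the 9 Polycomb group genes in whole testis, 1 panel for each gene, by line, age and genotype, with 1 point for each library and a bar at the group mean. Cbx2 lies between 25.9 and 29.3 in Dnmt3l controls and between 10.9 and 11.9 in Dnmt3l -/-, and Ezh2 and Bmi1 of Morc1 tg/tg lie below tg/+ at P14.5.

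In Morc1 testis at P10.5 only Cbx2 was called. Cbx2, at 14.2, 12.7 and 12.4 RPKM in tg/tg below 16, 15.8 and 17.3 in the controls, fell 1.24-fold (-0.31 ± 0.06, adjusted p = 0.00744), where 9.26% of all genes fell, and it missed the threshold without the third tg/tg library (-0.28, adjusted p = 0.0515). Ezh2 (17, 17.1 and 18.2 RPKM against 20.4, 18.6 and 20.5), Eed (24.5, 23.2 and 22.6 against 25.2, 28.7 and 27.1), Suz12 (26.4, 28.9 and 27.5 against 31.2, 31.4 and 30.6) and Bmi1 (20.9, 20.2 and 20.2 against 21.4, 25.4 and 23) were also lower in every tg/tg library without a call. Their log2 differences lay between -0.16 and -0.19 with adjusted p of 0.0723, 0.059, 0.0663 and 0.0984. Some passed under other settings, Eed and Bmi1 with tg/+ controls alone (adjusted p = 0.0393 and 0.0483), Eed and Ezh2 with the preliminary libraries added and their batch as a term (0.0448 and 0.0493), Eed and Suz12 with library sizes alone (0.0443 and 0.0442), and Ezh2 without the tg/+ library numbered 2 (0.0359). Cbx7 was the 1 gene higher in all 3 tg/tg libraries (0.14, adjusted p = 0.224), and Cbx8, Ring1 and Rnf2 overlapped between genotypes.

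At P14.5, 3 members fell in tg/tg testis, beside 20.1% of all genes. Ezh2 was at 16.9, 17.8 and 18 RPKM in tg/tg and 24.7, 22.3 and 25.3 in tg/+, 1.36-fold lower (-0.45 ± 0.07, adjusted p = 0.00229). Bmi1 was at 25.6, 25 and 25 RPKM against 31.7, 30.7 and 32.3, 1.25-fold lower (-0.32 ± 0.05, adjusted p = 0.00212). The calls of Ezh2 and Bmi1 were kept under every setting run. Suz12, at 27.2, 26.4 and 25.9 RPKM against 31.5, 30 and 29.7, fell by 0.19 ± 0.05 (adjusted p = 0.0172), a call lost without the first or the third library of either genotype (adjusted p = 0.0521, 0.0574, 0.09 and 0.0544). Eed, at 25.8, 23.9 and 25.1 against 28.5, 27.7 and 27, was lower in every tg/tg library and not called (-0.14, adjusted p = 0.07). Cbx2, called 4 days earlier, overlapped at P14.5 with 15.2, 12.1 and 14.6 RPKM in tg/tg and 14.4, 16.1 and 12.3 in tg/+, and Rnf2 was called only without the second tg/tg library (-0.26, adjusted p = 0.0352).

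The change of the Morc1 effect from P10.5 to P14.5 was itself tested and called for no member (0 by edgeR's quasi-likelihood test and by DESeq2, 3 under an unadjusted p of 0.05 beside 23.3% of all genes), where 8.22% of all genes were called. Ezh2 came nearest, at -0.29 ± 0.09 (adjusted p = 0.08), and passed without the second tg/+ library of P14.5 (-0.34, adjusted p = 0.028). Both ages of tg/tg testis also held less RNA of most germ cell lists. Germ cell markers summed to 240 to 271 RPKM in tg/tg and 358 to 368 in controls at P10.5 with 7 of 8 down, and to 359 to 400 against 674 to 826 at P14.5 with 7 of 8 down. Early meiotic markers fell in 6 of 6 at both ages, pachytene markers summed to 22.4 to 25.7 in tg/tg and 61.3 to 135 in tg/+ at P14.5, and Sertoli markers rose in 3 of 6 at P10.5 and 6 of 6 at P14.5. Of the 13 cell cycle genes 11 fell at P10.5 (median log2 difference -0.44, beside 9.26% of all genes) and 10 at P14.5 (median -0.37, beside 20.1%). Markers of undifferentiated spermatogonia did not follow the germ cell lists, with medians of 0.09 at P10.5 and 0.31 at P14.5, where 1 of 7 rose and 1 fell. Set against the germ cell gene Ddx4 within a library, Cbx2 did not separate at P10.5 (0.35 to 0.377 in tg/tg, 0.333 to 0.374 in controls), and Bmi1 stood higher in tg/tg at P14.5 (0.52 to 0.608 against 0.332 to 0.393). The part of cell makeup in the Polycomb changes was not tested beyond these values.

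Further PRC1 genes changed in both directions in the same testes. Scml2, a germline PRC1 partner, fell from a mean of 26.9 RPKM in controls at P10.5 (-0.52 ± 0.07, adjusted p = 0.000743), and Pcgf5 at 23.6 and 33.7 (-0.50 ± 0.06, adjusted p = 0.000552). In all, 1 of the 21 rose and 4 fell at P10.5, beside 6.08% and 9.26% of all genes, with Pcgf6 as the one that rose (0.21 ± 0.06, adjusted p = 0.0457), and 5 rose and 8 fell at P14.5, beside 14.8% and 20.1% of all genes. Those that fell at P14.5 included Scml2 (-0.72 ± 0.06, adjusted p = 0.000146), Pcgf5 (-0.72 ± 0.08, adjusted p = 0.000283), Phc1 (-0.65 ± 0.06, adjusted p = 0.000227) and Pcgf6 (-0.63 ± 0.11, adjusted p = 0.00252). The effect on Pcgf6 differed between the ages (-0.85 ± 0.13, adjusted p = 0.000982). Of the 9 further PRC2 genes 1 rose and 3 fell at P14.5, with Phf1 (-0.59 ± 0.10, adjusted p = 0.00242) and Jarid2, a PRC2 accessory protein (-0.38 ± 0.06, adjusted p = 0.00258), lower. Cdkn2a, a classical Polycomb target that encodes cell cycle inhibitors, was at mean RPKM of 13.8 in tg/tg and 23.6 in controls at P10.5 (-0.76 ± 0.08, adjusted p = 0.000206). It was the 1 target called there, of 22 textbook Polycomb targets listed and 9 with enough reads to be tested. At P14.5 1 target fell, again Cdkn2a (-0.28 ± 0.08, adjusted p = 0.0265), and 1 rose, Gata6, a transcription factor gene of gonadal somatic cells (0.43, adjusted p = 0.0236). In sorted germ cells of P10.5 Cdkn2a was also called lower in tg/tg (-0.47 ± 0.13, adjusted p = 0.0189), with libraries that overlapped. It was 1 of 6 targets tested there, where 5.79% of all genes fell.

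Of the mutant comparisons, loss of Dnmt3l had the most members called, 4 down and 1 up, beside 29% and 24.9% of all genes tested. It also had the most calls over all genes, 8439 of 15665, so this ranking is not particular to the members. Cbx2 was lowest in all 3 Dnmt3l -/- libraries, at 10.9, 10.9 and 11.9 RPKM, and ranged over the 6 controls from 25.9 through a median of 28.4 to 29.3, a fall of 2.4-fold (-1.26 ± 0.06, adjusted p = 9.29e-08). Eed was at 17.8, 20.9 and 21.5 RPKM against 29.1 to 34.2 with a median of 31.9, 1.56-fold lower (-0.64 ± 0.07, adjusted p = 1.65e-05). Bmi1 had a median of 16.4 RPKM and a lowest value of 15.8 in Dnmt3l -/-, all below the controls at 21.9 to 28.8 with a median of 24.4, 1.4-fold lower (-0.48 ± 0.09, adjusted p = 0.000564). None of these groups overlapped.
Cbx8, at 3.72, 4.28 and 4.53 RPKM against 5.12 to 6.91 with a median of 5.87, fell by 0.46 ± 0.09 (adjusted p = 0.00115). Ring1 was the member that rose, at 14, 13.9 and 13.4 RPKM against 9.28 to 12 with a median of 11.6 (0.34 ± 0.08, adjusted p = 0.00353). All 5 calls were kept under every setting run.

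The PRC2 core split in Dnmt3l -/- testis. Ezh2 overlapped its controls, at 18.2, 20.9 and 22.2 RPKM against 18.4 to 22.8 with a median of 20.4 (0.05, adjusted p = 0.632), and Suz12, at 30.5, 27.5 and 26.6 against 27.9 to 36.1 with a median of 30, was not called (-0.09, adjusted p = 0.382). Eed over Ezh2 was thus 0.968 to 0.998 in the 3 Dnmt3l -/- libraries and 1.49 to 1.74 in the 6 controls. In PRC1 the chromodomain balance shifted, with Cbx7 over Cbx2 at 0.301 to 0.363 in Dnmt3l -/- and 0.129 to 0.183 in controls, and Bmi1 over Rnf2 was 0.394 to 0.507 against 0.64 to 0.757. Cbx7 itself (-0.22, adjusted p = 0.0703) passed with library sizes alone (-0.25, adjusted p = 0.043) and without the first +/- library (-0.26, adjusted p = 0.0307), and Rnf2 (0.16, adjusted p = 0.0524) passed by DESeq2 (0.18, adjusted p = 0.0277), with +/+ controls alone (0.2, adjusted p = 0.0443), and without the second -/- library or the first or the third +/- library (adjusted p = 0.0393, 0.0224 and 0.0444).

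These testes too held less RNA of most germ cell lists. Germ cell markers fell in 8 of 8, with sums of 188 to 221 RPKM against 460 to 594, differentiating spermatogonia markers in 5 of 5, with 40.8 to 55.4 against 175 to 220, and early meiotic markers in 6 of 6, with 17.8 to 24.4 against 50.5 to 87.8. Of the 13 cell cycle genes 11 fell and 1 rose (median log2 difference -0.47). Markers of undifferentiated spermatogonia did not follow the germ cell lists, with 3 of 7 up and 2 down and sums of 49.6 to 54.6 against 49.7 to 60.6. Sertoli markers rose in 4 of 6, with 948 to 986 RPKM against 572 to 728. Relative to Ddx4, Cbx2 was still lower in Dnmt3l -/- (0.316 to 0.346 against 0.358 to 0.421), whereas Eed (0.564 to 0.613 against 0.416 to 0.479) and Bmi1 (0.483 to 0.508 against 0.326 to 0.384) were higher. Cbx2 thus moved down slightly more than Ddx4, which is 1 of the 8 germ cell markers, and Eed and Bmi1 less. Over the 8 germ cell markers the median log2 difference was -1.37, and over the 5 of differentiating spermatogonia -1.85. Cbx2, at -1.26, moved less than either median. The part of cell makeup in these changes was not tested beyond these values. Further PRC1 genes that fell were Pcgf5 (-1.50 ± 0.09, adjusted p = 1.68e-07), Scml2 (-1.33 ± 0.10, adjusted p = 7.61e-07) and L3mbtl2 (-0.92 ± 0.09, adjusted p = 5.19e-06), with 5 of 21 down and 2 up, beside 29% and 24.9% of all genes. Of the 9 further PRC2 genes 4 fell and 1 rose, led by E130012A19Rik (-1.76 ± 0.17, adjusted p = 5.16e-06), a PRC2 partner now called Epop. Of 11 textbook targets tested 3 rose and 5 fell, and Cdkn2a, at mean RPKM of 9.67 against 34, fell (-1.77 ± 0.11, adjusted p = 2.58e-07). Of the 6 genes for enzymes that remove the Polycomb marks, the PR-DUB subunits and the H3K27 demethylases, 1 rose and 1 fell.

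**Figure D4:**
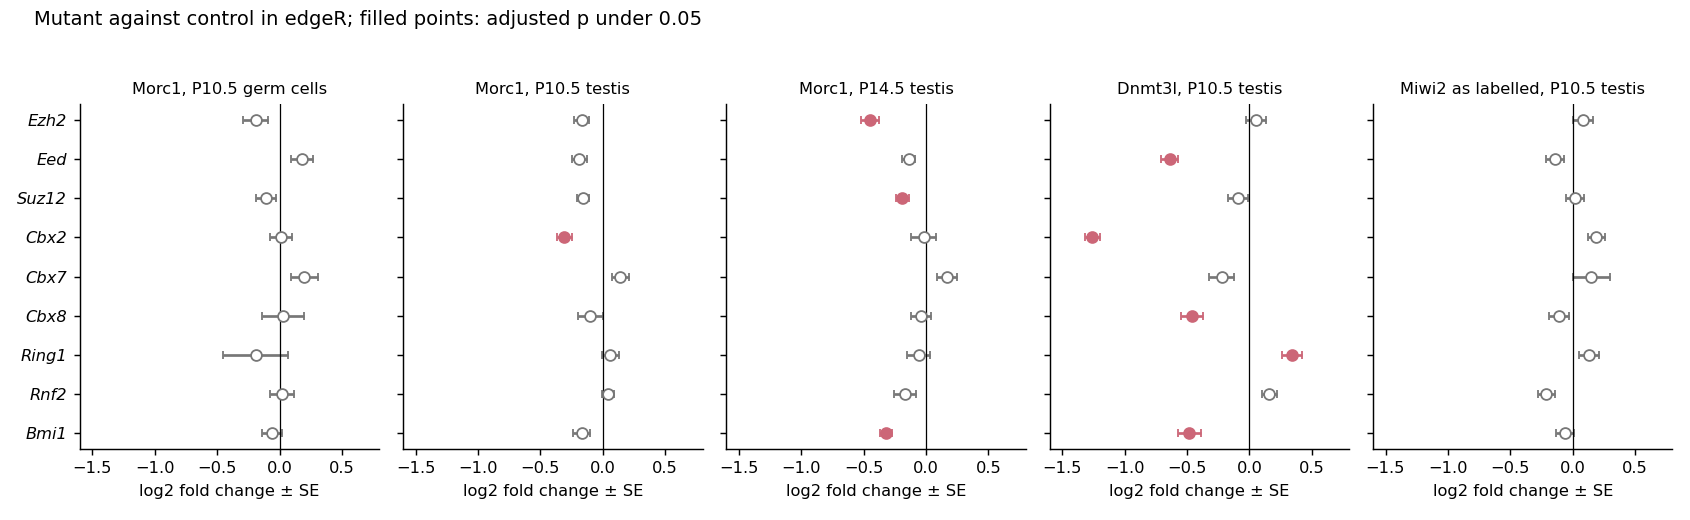
Log2 fold change of mutant against control with its standard error (bars) for the 9 genes in Morc1 P10.5 germ cells, Morc1 P10.5 and P14.5 testis, and Dnmt3l and Miwi2 P10.5 testis, from edgeR, with filled points for an adjusted p under 0.05. Cbx2 in Dnmt3l -/- testis lies farthest from 0, at -1.26, and no point is filled for Morc1 P10.5 germ cells or for Miwi2.

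The Morc1 and Dnmt3l lines were then compared for the size of their effects at P10.5, a test in which each mutant was set against the controls of its own line. Cbx2 (difference 0.91 ± 0.09, adjusted p = 8.57e-06) and Eed (0.40 ± 0.10, adjusted p = 0.0118) had a less negative effect in Morc1 tg/tg than in Dnmt3l -/-, Eed without a call in Morc1 tg/tg itself. Of all genes, 9.45% were called with a higher effect in Morc1 tg/tg. Under an unadjusted p of 0.05 were 7 of the 9 members, beside 32.8% of all genes. Markers moved with the same difference. Called with a higher effect in Morc1 tg/tg were 8 of 8 germ cell markers (median 0.86) and 5 of 5 markers of differentiating spermatogonia (median 1.21). Of the Sertoli markers, 4 of 6 were called with a lower one (median -0.4). The part of these marker lists in the result was not tested. Ring1 passed in 4 of the fits that left out 1 library. The lines also differed in their controls, where Cbx2 ranged from 15.8 to 17.3 RPKM for Morc1 and from 25.9 to 29.3 for Dnmt3l. Line and genetic background cannot be told apart.

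In the Miwi2 line no member was called (0 by edgeR's quasi-likelihood test and by DESeq2, 2 under an unadjusted p of 0.05 beside 20.2% of all genes, smallest adjusted p = 0.146), where 1.23% of all genes were called. With the replicate number as a block in edgeR, Cbx2, Eed and Rnf2 passed (adjusted p = 0.000423, 0.0121 and 6.63e-05). All genes called then moved from 197 to 4503, and the numbers were not shown to pair the mice. Cbx2 was at 21.7 and 20.9 RPKM in the libraries labelled Miwi2 -/- and 18.9 and 17.9 in +/-, and Rnf2 at 34.5 and 31.9 against 39.7 and 36.1, without overlap in either. Rnf2 passed without the second +/- library (-0.27, adjusted p = 0.0402). Eed, at 35 and 36.9 against 39.4 and 38.9, was lower in both libraries labelled Miwi2 -/-, and Bmi1, at 23.3 and 24.4 against 24.5 and 24.6, lay just below. Ring1 was higher in both (9.56 and 10.3 RPKM against 8.64 and 9.28), and Ezh2, Suz12, Cbx7 and Cbx8 overlapped.

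Across the 20 sorted libraries the genes fell into patterns that were described by Pearson's r of log2(CPM + 1), CPM being counts scaled to library size. These libraries share stages and depth, so r is given without a test. Suz12 and Cbx2 had r = 0.83, Cbx7 and Bmi1 0.73, and Rnf2 and Bmi1 0.62, while Ezh2 and Eed had -0.71 and Cbx2 and Cbx7 -0.72. Of 12870 genes compared, the nearest pattern was that of Cbl for Ezh2 (0.92), Rps15a for Eed (0.96), Usp1 for Suz12 (0.96), Arhgap10 for Cbx2 (0.96), R3hdm1 for Cbx7 (0.89), Trim33 for Bmi1 (0.94) and Gdi2 for Rnf2 (0.91). For the low genes Cbx8 (Snx21, 0.92) and Ring1 (Kifc5b, 0.85) the few reads behind each value enter the likeness.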

How the data were processed

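RNA was sequenced from sorted germ cells and whole testis, each library from 1 mouse. The authors mapped reads uniquely to mm9 with few mismatches and counted them on genes, and the processing notes name Bowtie, HTSeq and SAMtools. The deposited tables hold read counts per gene, not normalized, and the RPKM that the authors derived from them by exon length. Columns of transcript coordinates were used for position only, and 4 small RNA tables were not used here.

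Groups came from the sample titles. The counts were fitted per comparison with edgeR 4.0.16 in R 4.3.3 (TMM, filterByExpr, quasi-likelihood test, Benjamini-Hochberg adjustment over all genes tested, threshold 0.05), stages in 1 fit of the 11 tg/+ germ cell libraries, and effects were compared by interaction terms. SE is the fold change over the square root of F. DESeq2 1.42.0, other scalings, no filter, other controls, a replicate block and leaving out each library were alternatives, and the fit was tested on simulated data. The 9 genes were always named, and from each list of other genes up to 4 called genes a comparison by size of change, of which 1 gene is not reported here. The members and lists were chosen with earlier results of these data known. No pair of libraries of a group matched within sampling noise (lowest chi-square per gene 4.45 over 38 pairs).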

Additional observations from a re-analysis of the deposited data

Results flagged for a closer look

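Within the 18 sets of a member and a group of 4 to 10 libraries, 3 libraries lay far from the rest of their group by Dixon's test, which chance alone does in about 1 of 20 such sets. Cbx7 was at 10.9 RPKM in Morc1 tg/+ P10.5 germ cells replicate 2, above the other 3 libraries at 9.68 to 9.84. Ring1 was at 2.65 RPKM in replicate 4 of the same group, above 1.51 to 1.69. Ring1 was at 9.28 RPKM in Dnmt3l +/- testis replicate 1, below the other 5 controls, of which the highest was at 12.

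The Morc1 and Dnmt3l lines differed in the size of an effect for both genes named here, tested by an interaction term in edgeR. The log2 effect at P10.5 was 0.4 higher in Morc1 tg/tg than in Dnmt3l -/- testis for Eed and 0.91 higher for Cbx2. In P10.5 testis Cbx2 and Eed were lower in all mutant libraries of both lines than in the controls of the line.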

How the results depend on the processing

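Of the alternative values of members' log2 fold changes, 1409 kept direction and side of the threshold, 90 were at 0 or of the other sign and past the threshold in neither setting, 43 passed newly, 23 no longer passed, and 1 passed with the opposite sign, Cbx8 from E18.5 to P2.5 without E18.5 tg/+ replicate 1 (1.66, and -0.87 without replicate 2). The cause was not tested. Members called moved from 1 to 3 in Morc1 P10.5 testis with library sizes alone, with tg/+ controls only and with the preliminary libraries added, and from 0 to 1 at E18.5 by DESeq2. Rescaling RPKM by TMM moved 97 of the 153 group levels by over 1 SD. Depth limits Ring1 and Cbx8 in sorted cells.

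All genes called moved from 197 to 355 by DESeq2 in Miwi2. For the Morc1 effect by stage they moved from 201 to 1143 by DESeq2 and 654 with no filter. At E16.5 they moved from 70 to 180 with no filter and 8 with all sorted libraries in 1 fit, at E18.5 from 6 to 271 by DESeq2, 83 with no filter and 619 in 1 fit, at P2.5 from 7 to 20, 27 and 79, and in P10.5 germ cells from 1712 to 125 in 1 fit.

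The replicate numbers came from different mice and were not shown to pair them (correlations of deviations from -0.43 to 0.35). In Miwi2, with 2 libraries of each genotype, it was 0.32 for the same number and -0.32 for the other, which mirror each other by construction. At E16.5 and E18.5, also with 2 and 2, it was -0.03 and -0.02 for the same number. What the Miwi2 libraries of a number share was not tested. With the replicate number as a block, all genes called moved from 197 to 4503 in Miwi2, where 3 members, Cbx2, Eed and Rnf2, passed (adjusted p = 0.000423, 0.0121 and 6.63e-05; 0 without it), from 201 to 100 by stage, from 2326 to 1171 in Morc1 P10.5 testis, from 70 to 174 at E16.5, from 6 to 46 at E18.5 and from 7 to 28 at P2.5. Suz12 from E16.5 to E18.5 (adjusted p = 0.0561) and Rnf2 from P2.5 to P10.5 (0.129) were lost with the block, and Rnf2 in Dnmt3l passed (0.0285).

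When each library was left out in turn, all genes called ranged from 74 to 171 at E16.5, 0 to 190 at E18.5, 0 to 70 at P2.5, 1144 to 1824 in P10.5 germ cells, 922 to 2352 in Morc1 P10.5 testis, 3517 to 5001 at P14.5, 6964 to 8745 in Dnmt3l, 340 to 952 in Miwi2, 1731 to 4795 from E16.5 to E18.5, 5869 to 7672 to P2.5, 3548 to 6118 to P10.5, 5956 to 7962 from P10.5 to P14.5 testis, 73 to 1090 by stage, 772 to 1746 by age and 1753 to 4021 between lines. Members called ranged from 0 to 1 at E16.5, 0 to 0 at E18.5, P2.5 and in P10.5 germ cells, 0 to 3 in Morc1 P10.5 testis, 2 to 4 at P14.5, 5 to 7 in Dnmt3l, 0 to 1 in Miwi2, 2 to 5, 4 to 6 and 2 to 3 at the steps between germ cell stages, 1 to 4 from P10.5 to P14.5 testis, 0 to 1 by stage and by age, and 2 to 3 between lines. Where an arm was left with 1 library, that library was assumed to vary like the others.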
